A study of Mus musculus with 4 samples.

Results

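The clustered histone genes of the mouse were described here in effector CD4 cells (CD44+CD4) from 2 tissues at the onset of experimental autoimmune encephalomyelitis (EAE), a mouse model of multiple sclerosis. Members were taken by name, as the gene symbols matching Hist1h, Hist2h, Hist3h or Hist4, and FPKM (fragments per kilobase of transcript and relative to library size) was summed over the transcripts of each symbol. This gave 67 members of 23990 symbols, of which 53 belong to cluster 1 on chromosome 13, 10 to cluster 2 on chromosome 3, 3 to cluster 3 on chromosome 11 and 1 to cluster 4 on chromosome 6. By type, 6 are named for the linker histone H1 and 18 for H2A, 18 for H2B, 12 for H3 and 13 for H4, the core histones. The H2B members include Hist3h2bb-ps of cluster 3, a pseudogene by its symbol.

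The mice were wild type C57BL/6 (C57BL/6J in the study's methods) immunized with MOG, and 2 libraries were made of cells from spinal cords (CNS) and 2 of cells from draining lymph nodes that had been pooled (dLN). The study's methods describe PMA and ionomycin given to the sorted cells over 4 h, while the labels call the cells freshly sorted and mention no such step. No unimmunized or naive group is used here, so each value compares one immunized tissue with another. Nothing in the labels says that the libraries of a tissue came from separate animals, so p-values measure the spread between these libraries, which may be technical.

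In proliferating cells, each round of DNA replication needs a new supply of core and linker histones, and the clustered genes are known for being read mostly in S phase. Their messenger RNAs classically end in a short hairpin, the stem-loop, in place of a poly(A) tail, and the stem-loop binding protein Slbp holds that end. Some of these genes can also give polyadenylated transcripts that run past the stem-loop, and H1 genes such as Hist1h1c are known to be expressed outside S phase too. The study's methods name TruSeq RNA V2 kits, and whether poly(A) RNA was selected is not stated in the sources used here. A library that selects it would hold little of the hairpin-ended form. The levels below therefore need not follow the whole histone mRNA of the cells.

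The stem-loop is shown for the members on which the comparison turns, since it marks the end of the classical transcript. The letters are from GENCODE M21 transcripts, 5′ to 3′, with the stem and loop in capitals and 5 flanking bases on each side.

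Hist1h1c: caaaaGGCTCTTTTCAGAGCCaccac

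Hist1h1e: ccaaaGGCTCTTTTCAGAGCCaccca

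Hist1h2ae: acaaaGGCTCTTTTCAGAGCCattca

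Hist1h2bg: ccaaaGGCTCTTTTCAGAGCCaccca

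Hist3h2ba: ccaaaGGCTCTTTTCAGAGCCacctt

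Hist1h3c: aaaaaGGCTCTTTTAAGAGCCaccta

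Hist1h4c: caaaaGGCCCTTTTCAGGGCCaccca

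Hist1h4i: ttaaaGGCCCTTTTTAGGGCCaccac

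The form in capitals in the Hist1h1c line, with any base allowed right after the run of T, was found in 33 of the 67 members and in 0.0268% of 141767 annotated transcripts. The form in the Hist1h4c line, read the same way, was found in 9 of the 13 H4 members and in 0.00705% of transcripts, and it was added to the search after the data had been seen. The other 25 members held neither form in the annotated transcript. In 21 members the annotated transcript ran at least 100 bases past the stem-loop, by 840 bases for Hist1h1c, 1153 for Hist1h1e and 169 for Hist3h2ba, but by 74 for Hist1h3c. The transcript models of the deposited tables were often shorter. The Hist1h1c model was 725 bases long where the GENCODE transcript had 1560. In 26 members a GENCODE transcript was longer than the main model by at least 100 bases, while in 23 the main model was the longer one. A stem-loop not found in the annotated transcript need not be absent from the gene.

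The promoters of 4 members are shown because they cover the range of tissue differences described below. Each is the 120 bases before the annotated start (RefSeq, GRCm38.p6), 5′ to 3′ on the gene's strand, with matches on either strand in capitals to the TATA box (TATAAA), to the CCAAT box and to the octamer motif (ATTTGCAT).

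Hist1h1c, chr13:23738687-23738806, plus strand: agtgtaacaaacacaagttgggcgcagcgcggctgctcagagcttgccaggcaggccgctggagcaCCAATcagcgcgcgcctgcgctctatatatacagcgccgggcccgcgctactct

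Hist1h2bg, chr13:23571280-23571399, plus strand: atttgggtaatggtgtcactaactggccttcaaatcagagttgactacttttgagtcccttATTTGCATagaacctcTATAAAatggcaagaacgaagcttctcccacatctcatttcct

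Hist1h3c, chr13:23745522-23745641, minus strand: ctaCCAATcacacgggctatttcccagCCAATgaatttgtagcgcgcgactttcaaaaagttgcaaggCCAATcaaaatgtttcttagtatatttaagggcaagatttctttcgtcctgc

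Hist1h4i, chr13:22041363-22041482, minus strand: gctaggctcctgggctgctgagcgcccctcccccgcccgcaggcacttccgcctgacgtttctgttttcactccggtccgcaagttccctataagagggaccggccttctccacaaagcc

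RefSeq windows from 250 bases before to 50 bases after the start were found for 61 members (62 windows). CCAAT stood in 6 of 6 H1, 18 of 18 H2A, 16 of 16 H2B and 10 of 10 H3 windows but in 3 of 12 H4 windows, against 37.4% of 32851 windows of all genes. TATAAA stood in 35 of the 62 windows, against 13.6% of all. The octamer stood in 7 of 18 H2A and 7 of 16 H2B windows and in 0 of the H1, H3 and H4 windows, against 1.74% of all. Windows of neighbouring H2A and H2B genes overlap, so these counts are not independent, and a match is a string of letters, not a shown site.

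The estimated depth was 18.4 M to 21.9 M fragments per library, which was read from the spacing of low values. T cell markers were well above the minimum in each library (10 of 10 measured, summing to 3028 and 3064 FPKM in CNS and 1377 and 1347 FPKM in dLN), while 14 measured myeloid markers summed to 144 and 730 FPKM in CNS replicates 1 and 2 and to 49.7 and 42.3 FPKM in dLN replicates 1 and 2. Of these, 10 and 14 were above 1 FPKM in the CNS libraries and 1 (Cst3) in each dLN library, and the defining myeloid genes C1qa, C1qb, C1qc, Csf1r and Tyrobp were listed at 0 in both dLN libraries. CNS replicate 2 therefore stands apart (S100a8 at 101 FPKM, listed at 0 in the others), and results are also given without it. The Y-linked gene Ddx3y was detected in CNS (12.7 and 11.2 FPKM) and listed at 0 in each dLN library, and tissue cannot be told apart from the sex of the mice.

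Transcripts of the clustered histone genes were more abundant in CNS than in dLN effector CD4 cells. Their summed level was 165.3 and 246.3 FPKM in the 2 CNS libraries and 47.8 and 40.5 FPKM in the 2 dLN libraries. The ratio of the tissue means was 4.66, or 3.74 without CNS replicate 2, and the groups did not overlap. In estimated fragments this was 1576 and 2063 against 279 and 286, so the dLN values rest on few fragments per gene. Of the 65 members above 0 in any library, 59 had the higher mean in CNS and 6 in dLN, where 57.2% of all 16782 symbols above 0 had the higher mean in CNS. In bulk libraries, more cells that make histone transcripts and more transcript per cell cannot be told apart.

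The ratio differed in size between types and was largest for H1; these sums are a description and were not tested. The H1 sum was 62.0 and 75.1 FPKM in CNS against 2.21 and 1.86 FPKM in dLN, a ratio of 33.7. The H2B sum was 40.0 and 66.5 FPKM against 11.1 and 10.1 FPKM (ratio 5.02), and the H4 sum 28.6 and 45.0 FPKM against 12.8 and 10.2 FPKM (ratio 3.19). For H2A the sums were 24.5 and 41.4 FPKM against 12.7 and 10.7 FPKM (ratio 2.81). H3, the partner of H4 in the nucleosome core, was nearest between tissues, at 10.3 and 18.3 FPKM against 9.03 and 7.57 FPKM (ratio 1.72). Its ratio was 1.24 without CNS replicate 2. Hist1h3c alone held 39.4% and 42.0% of the H3 sum in the dLN libraries and 8.58% and 14.1% in the CNS libraries, so the H3 ratio leans on this gene. The make-up of the summed transcripts differed accordingly: H1 held 37.5% and 30.5% of it in the CNS libraries and 4.61% and 4.58% in the dLN libraries, while H3 held 6.23% and 7.43% in CNS and 18.9% and 18.7% in dLN.

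**Figure D1:**
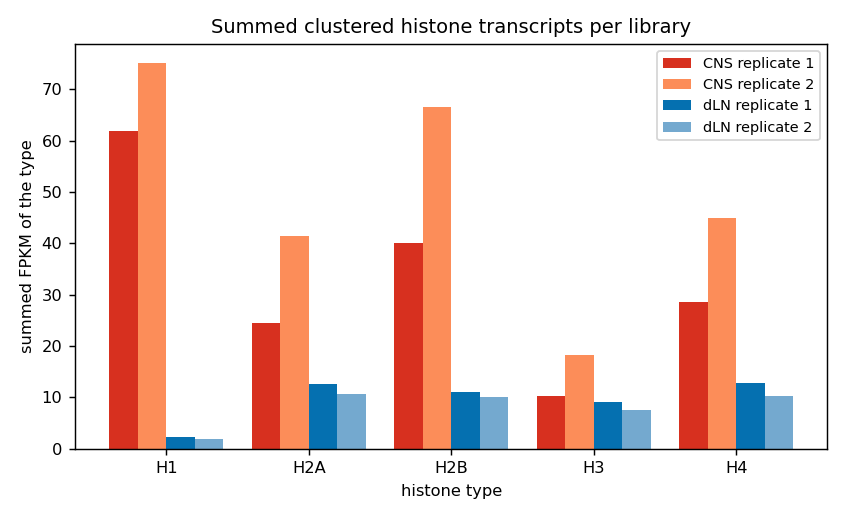
Bars show the FPKM summed over the members of each histone type (vertical axis, starting at 0) in each of the 4 libraries, with no error bars since each bar is a single library. The H1 bars stand at 62.0 and 75.1 FPKM in CNS and near 2 FPKM in dLN, and the H3 bars are the closest between tissues.

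By cluster, the ratio of the tissue means was 4.27 for cluster 1 and 16.4 for cluster 3, whose sum was 14.1 and 22.1 FPKM in CNS against 1.07 and 1.14 FPKM in dLN. Cluster 2 summed to 17.7 and 27.4 FPKM in CNS against 4.94 and 4.08 FPKM in dLN. Cluster 4 is the gene Hist4h4 alone, at 1.65 and 1.31 FPKM in CNS, listed at 0 in dLN replicate 1 and at 0.355 FPKM in dLN replicate 2. Cluster 1 held 79.8% and 79.4% of the summed FPKM in CNS and 87.4% and 86.2% in dLN.

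Each gene was tested with limma on log2(FPKM + 1), with p-values adjusted by Benjamini-Hochberg over the 10634 genes whose mean reached 1 FPKM in at least one tissue. On this scale a log2 ratio understates the change of low genes. Of the 67 members, 43 passed the minimum, and 27 of these were higher in CNS at an adjusted p under 0.05, 0 were lower and 16 were not called (28 and 0 at an unadjusted p under 0.05). Across all genes tested, 74.9% were called, 37.8% higher and 37.2% lower. The members' share has to be read with the minimum, since 32 of the 43 reached it in CNS alone and so had the higher mean there by construction. Of these 32, 22 were called higher, against 78.0% of all genes of that kind, so their share (68.8%) was not above the background. Of the 11 members that reached the minimum in both tissues, 5 were called higher, against 35.1% of such genes. In size, 19 of the 43 were called with a log2 ratio of at least 1, against 21.0% of all genes tested, and the median log2 ratio was 0.78 against 0.05. These values carry the same effect of the minimum and are a description.

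The call count moved with the libraries used. Without CNS replicate 2, the library high in myeloid markers, 23 of 38 members were higher and 2 lower, the latter being Hist1h3c and Hist1h2ae. Without dLN replicate 2, 18 of 43 were higher, of which 17 were among the 27. Both CNS libraries were above both dLN libraries in 36 of the 43 members (45.7% of all genes tested), below in 2 (43.7%) and overlapping in 5. This count also carries the effect of the minimum, since 31 of the 36 reached it in CNS alone. Of the 11 members that reached it in both tissues, 5 were above and 2 below, beside 45.7% and 43.7% of all genes tested. The shares among all genes that reached the minimum in both tissues are not given here.

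**Figure D2:**
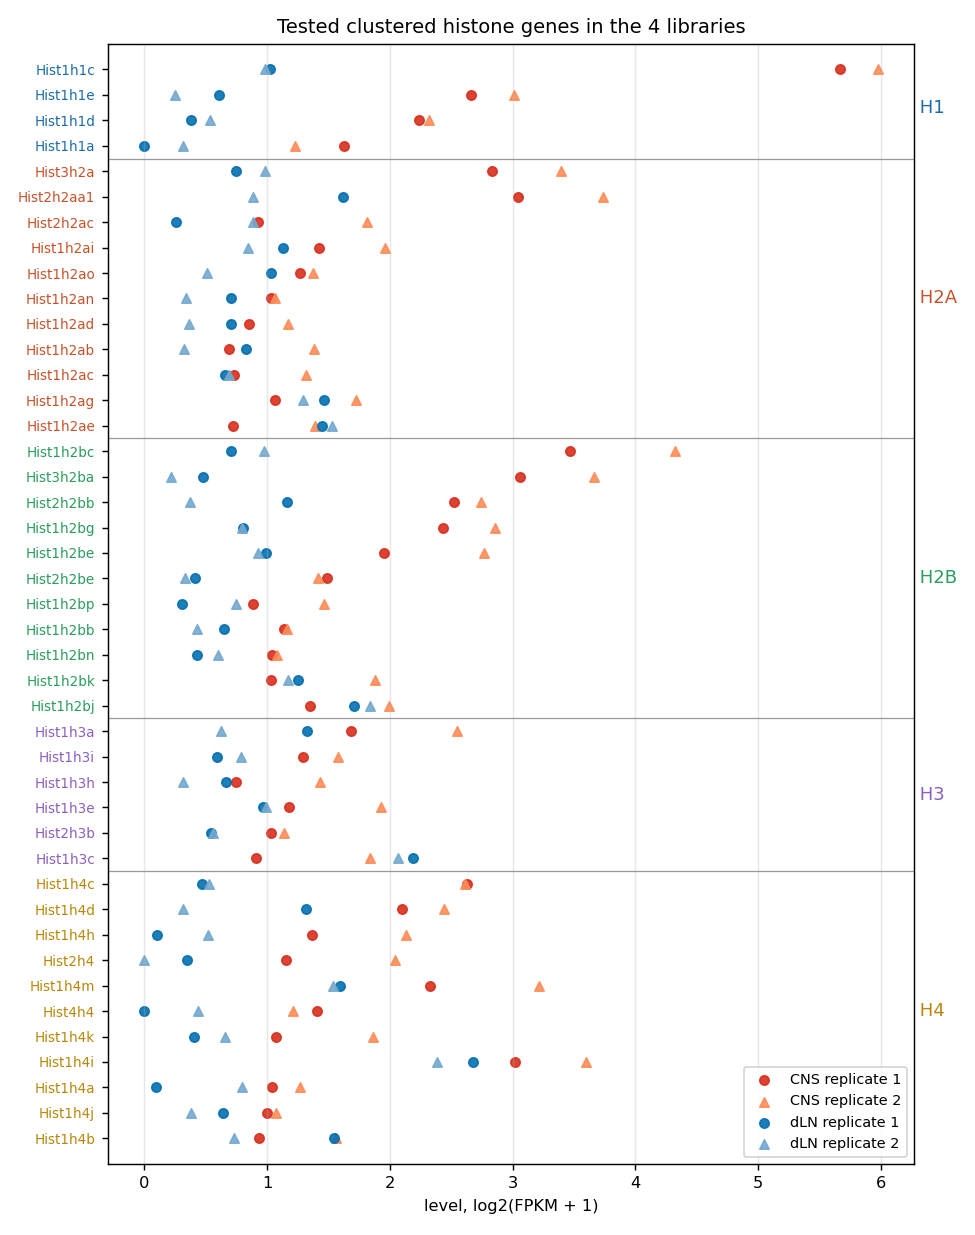
Points show the level of each of the 43 tested members, as log2(FPKM + 1), in each library, with circles for replicate 1, triangles for replicate 2, red tones for CNS and blue tones for dLN. Members are grouped by type, and within H1, Hist1h1c stands far to the right of the other members in both CNS libraries and near 1 in both dLN libraries.

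Hist1h1c (Entrez 50708, chr13:23738807-23739531 in mm10) encodes the somatic linker histone H1.2 and changed most. It was at 49.7 and 61.9 FPKM in CNS and at 1.03 and 0.977 FPKM in dLN. The CNS libraries lay far above both dLN libraries, at a log2 ratio of 4.82 ± 0.13 (SE, limma, adjusted p = 8.1e-05). About 1300 fragments in CNS against 22 in dLN stood behind these values, a depth-scaled ratio of 55.0 with a 95% interval of 36.1 to 88.0 for counting error only. This single gene made up 30.1% and 25.1% of the summed FPKM of the clustered genes in CNS and 2.15% and 2.41% in dLN, and without it the ratio of the sums was 3.48.

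The other tested linker histones were also higher in CNS, at lower levels. Hist1h1e, encoding H1.4, was at 5.33 and 7.05 FPKM in CNS and 0.522 and 0.189 FPKM in dLN (log2 ratio 2.41 ± 0.20, adjusted p = 4.0e-04). Hist1h1d, encoding H1.3, was at 3.70 and 3.98 FPKM against 0.298 and 0.446 FPKM (log2 ratio 1.82 ± 0.13, adjusted p = 3.1e-04). Hist1h1a, encoding H1.1, was at 2.09 and 1.34 FPKM in CNS, listed at 0 in dLN replicate 1 and at 0.242 FPKM in dLN replicate 2 (log2 ratio 1.27 ± 0.22, adjusted p = 0.0047). The dLN level of Hist1h1a rests on 3 fragments, and its depth-scaled ratio was 13.0 with a counting interval of 4.16 to 65.7. For each of the 3 genes both CNS libraries were above both dLN libraries. Hist1h1b, encoding H1.5, fell just under the minimum at means of 0.980 and 0.178 FPKM, and the testis gene Hist1h1t was listed at 0 in the 4 libraries. Within H1, Hist1h1c held 80.2% and 82.4% of the sum in CNS and 46.7% and 52.7% in dLN, where H1 rests on few fragments.

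Among H2B genes, 8 of 11 tested members were higher in CNS, beside 37.8% of all genes tested. All but Hist1h2bj and Hist1h2bk reached the minimum in CNS alone, where 78.0% of all such genes were called higher. Hist1h2bc was at 10.1 and 19.0 FPKM in CNS and 0.629 and 0.971 FPKM in dLN (log2 ratio 3.05 ± 0.31, adjusted p = 7.3e-04). Hist3h2ba, of the small cluster 3, was at 7.35 and 11.7 FPKM against 0.393 and 0.163 FPKM (log2 ratio 3.01 ± 0.24, adjusted p = 3.6e-04). Its dLN level rests on 3 fragments, and the depth-scaled ratio was 34.8 with a counting interval of 11.6 to 171. Both genes lay clearly apart between tissues, although CNS replicate 2 was above CNS replicate 1 in each.

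Hist1h2bg was at 4.41 and 6.24 FPKM in CNS and at 0.741 and 0.735 FPKM in dLN (log2 ratio 1.85 ± 0.18). Hist1h2be was at 2.87 and 5.80 FPKM against 0.984 and 0.904 FPKM (log2 ratio 1.40 ± 0.29). The tissues did not overlap in either gene, at adjusted p-values of 6.2e-04 and 0.0086 by limma. Hist2h2bb was at 4.74 and 5.70 FPKM against 1.24 and 0.293 FPKM (log2 ratio 1.87 ± 0.29, adjusted p = 0.0032), but 0% of the 50-base stretches of its transcript are unique among annotated transcripts, so its reads could be shared with near copies. Hist2h2be, with the longest model of the members at 2618 bases, was at 1.80 and 1.67 FPKM against 0.333 and 0.260 FPKM (log2 ratio 1.08 ± 0.14, adjusted p = 0.0019). Its 180 and 29 fragments make it one of the better measured members despite the low FPKM. Hist1h2bj was not called, at 1.55 and 2.98 FPKM in CNS and 2.26 and 2.58 FPKM in dLN, with a log2 ratio of -0.10 and a 95% interval of -0.72 to 0.52.

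Among H2A genes, 3 of 11 tested members were higher in CNS, beside the 37.8% of all genes tested, and differences in call counts between types were not tested. All but Hist2h2aa1, Hist1h2ag and Hist1h2ae reached the minimum in CNS alone, where 78.0% of all such genes were called higher. Of the H2A members of that kind, only Hist3h2a and Hist1h2ai were called. Hist3h2a was at 6.14 and 9.54 FPKM in CNS and at 0.674 and 0.979 FPKM in dLN (log2 ratio 2.25 ± 0.22, adjusted p = 7.2e-04). Hist2h2aa1 was at 7.25 and 12.3 FPKM against 2.07 and 0.843 FPKM (log2 ratio 2.14 ± 0.34, adjusted p = 0.0036). The deposited models place it on the same interval as Hist2h2aa2, and the pair summed to 7.25, 12.3, 2.07 and 1.88 FPKM in the same order of libraries (log2 ratio 1.82). The RefSeq promoter windows of the pair lie apart, at chr3:96245247-96245546 and chr3:96240325-96240624. In either gene 0% of the 50-base stretches are unique among annotated transcripts, so the split of reads between them is uncertain. Hist3h2a and Hist2h2aa1 lay outside cluster 1, and the third called H2A gene, Hist1h2ai, differed less (log2 ratio 0.71, adjusted p = 0.040). Hist1h2ae was at 0.650 and 1.62 FPKM in CNS and at 1.72 and 1.89 FPKM in dLN, so both CNS libraries were below both dLN libraries, but its log2 ratio of -0.43 had an interval of -1.09 to 0.22 and was not called (adjusted p = 0.17, limma).

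Among H4 genes, 9 of 11 tested members were higher in CNS, beside 37.8% of all genes tested. All but Hist1h4i, Hist1h4m and Hist1h4b reached the minimum in CNS alone, where 78.0% of all such genes were called higher. Hist1h4i was the highest of the clustered genes in dLN and among the highest in CNS, at 7.09 and 11.1 FPKM in CNS and 5.41 and 4.23 FPKM in dLN (log2 ratio 0.78 ± 0.23, adjusted p = 0.030). Hist1h4c was at 5.18 and 5.12 FPKM in CNS but at 0.382 and 0.443 FPKM in dLN (log2 ratio 2.12 ± 0.12, adjusted p = 1.5e-04). The call of Hist1h4i was lost without CNS replicate 2 (adjusted p = 0.0998), without dLN replicate 1 (adjusted p = 0.055) and without dLN replicate 2 (adjusted p = 0.12). The Hist1h4c level in dLN rests on 3 fragments, and its depth-scaled ratio was 13.1 with a counting interval of 4.18 to 65.7.

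Hist1h4m was at 4.03 and 8.31 FPKM in CNS and 2.02 and 1.91 FPKM in dLN (log2 ratio 1.21 ± 0.30). The deposited models place it on the same interval as Hist1h4n, which was listed near 0 throughout. The RefSeq promoter windows of both genes lie apart, at chr13:21811496-21811795 and chr13:21832148-21832447. Only 10.2% and 14.4% of their 50-base stretches are unique among annotated transcripts, so the split of reads between them is uncertain. Hist1h4d was at 3.28 and 4.43 FPKM against 1.49 and 0.245 FPKM (log2 ratio 1.46 ± 0.36), with the dLN libraries far from each other. Hist1h4h was at 1.58 and 3.39 FPKM against 0.0727 and 0.429 FPKM (log2 ratio 1.44 ± 0.31). The adjusted p-values of Hist1h4m, Hist1h4d and Hist1h4h were 0.018, 0.016 and 0.010 by limma, and in each gene the tissues did not overlap. Hist2h4 was at 1.22 and 3.12 FPKM in CNS, at 0.274 FPKM in dLN replicate 1 and listed at 0 in dLN replicate 2 (log2 ratio 1.42 ± 0.34, adjusted p = 0.014). The level of Hist4h4 given above corresponds to a log2 ratio of 1.09 ± 0.21 (adjusted p = 0.0073). The dLN levels of Hist1h4h, Hist2h4 and Hist4h4 rest on 3, 1 and 2 fragments, and the depth-scaled ratios had wide counting intervals, at 8.14 (2.50 to 41.9), 17.0 (2.70 to 705) and 7.69 (1.83 to 68.7). Hist1h4d lost its call without either CNS replicate (adjusted p = 0.094 and 0.10), Hist1h4h without dLN replicate 1 (0.053), Hist1h4m without either dLN replicate (0.067 and 0.065), Hist2h4 without dLN replicate 2 (0.062) and Hist4h4 without CNS replicate 1 (0.052).

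Among H3 genes, 3 of 6 tested members were higher in CNS, beside 37.8% of all genes tested. All but Hist1h3a and Hist1h3c reached the minimum in CNS alone, where 78.0% of all such genes were called higher. Hist1h3a was at 2.21 and 4.86 FPKM in CNS and at 1.51 and 0.539 FPKM in dLN (log2 ratio 1.14 ± 0.38, adjusted p = 0.042), and its call was lost without CNS replicate 1 (adjusted p = 0.052), CNS replicate 2 (0.17) or dLN replicate 2 (0.16). Hist1h3c was at 0.882 and 2.58 FPKM in CNS and at 3.56 and 3.18 FPKM in dLN. It was the second highest clustered gene in dLN, and both dLN libraries were above both CNS libraries, but the log2 ratio of -0.75 ± 0.32 was not called (adjusted p = 0.087, limma; 95% interval -1.59 to 0.09). About 22 fragments in CNS and 40 in dLN stood behind it.

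**Figure D3:**
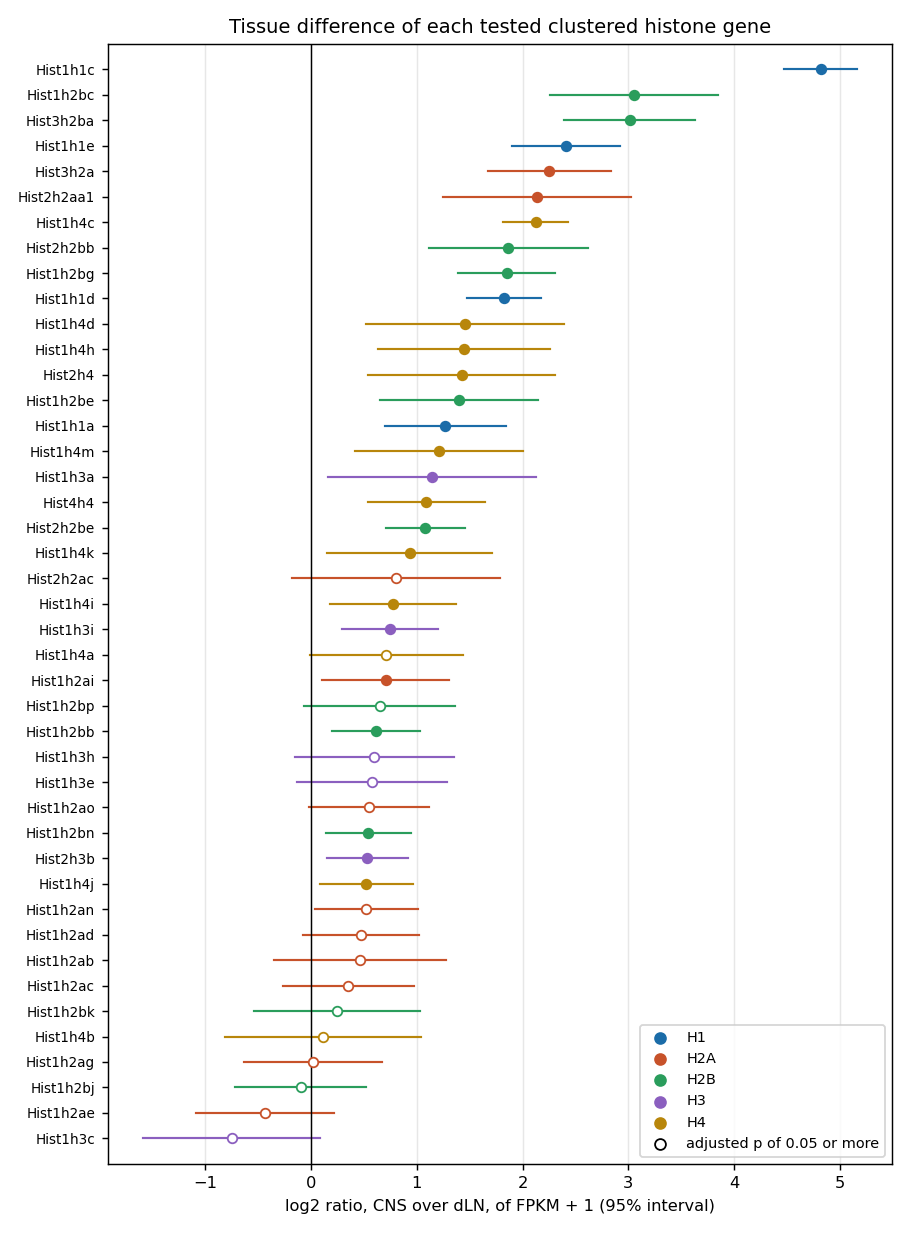
Points show the log2 ratio of CNS over dLN of FPKM + 1 for each tested member with its 95% interval from limma, coloured by histone type, filled where the adjusted p was under 0.05. Hist1h1c lies at 4.82, Hist1h2bc and Hist3h2ba near 3, and Hist1h3c at -0.75 with an interval that crosses 0.

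The other 23 tested members are given by range. The 7 others that were called (Hist1h2ai, Hist1h2bb, Hist1h2bn, Hist1h3i, Hist1h4j, Hist1h4k and Hist2h3b) had log2 ratios of 0.52 to 0.93. Of the 16 not called, 13 had a log2 ratio above 0 and 3 below it, with a range of -0.75 to 0.80. Their 95% intervals reached from -1.59 to 1.78, so a change of some size cannot be told from none in many of them at this depth. The 24 members under the minimum were 2 H1, 7 H2A, 7 H2B, 6 H3 and 2 H4 genes, with no value above 1.39 FPKM in any library. Among them Hist1h2ba, a testis H2B gene, had means of 0.398 and 0.0783 FPKM, and Hist1h2aa was listed at 0 in the 4 libraries.

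H2A and H2B genes often lie head to head with a shared stretch between their starts. Here 11 such pairs, counting Hist3h2a with the pseudogene Hist3h2bb-ps, had starts at most 500 bases apart, and 5 had both genes tested. Across 240 bases, Hist1h2ac was at 0.661 and 1.497 FPKM in CNS and 0.581 and 0.609 FPKM in dLN (log2 ratio 0.35, adjusted p = 0.23) beside Hist1h2bc with its log2 ratio of 3.05. Across 180 bases, Hist1h2ae had a log2 ratio of -0.43 beside 1.85 for Hist1h2bg. In the other 3 tested pairs the genes lay closer: the log2 ratios were 0.02 and -0.10 in Hist1h2ag and Hist1h2bj (281 bases apart), 0.52 and 0.65 in Hist1h2an and Hist1h2bp (270 bases apart) and 0.80 and 1.08 in Hist2h2ac and Hist2h2be (241 bases apart). The difference between the genes of a pair was not tested.

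Members also differed by how their annotated transcripts end. Among 15 tested members whose GENCODE transcript ran at least 100 bases past the stem-loop, 12 were higher in CNS, the median log2 ratio was 1.46 and the ratio of the summed tissue means was 8.31. Hist1h1c alone supplied much of that ratio, which was 4.74 without it (median 1.44). Among 14 that ended within 100 bases of it, 5 were higher, with a median of 0.58 and a ratio of 2.26. Among the 14 with no stem-loop found, 10 were higher, with a median of 0.71 and a ratio of 4.70. Their annotated transcripts may stop before the stem-loop, so these members need not lack it. A poly(A) signal (AATAAA or ATTAAA in the last 50 bases) was present in 13 tested members, of which 10 were higher (median 1.09), and absent in 30, of which 17 were higher (median 0.66). The classes were set after the data had been seen and were not tested, and Hist1h2ae (151 bases past the stem-loop) was an exception at -0.43. Of all genes tested, 37.8% were higher in CNS, and the counts here carry the effect of the minimum described above.

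**Figure D4:**
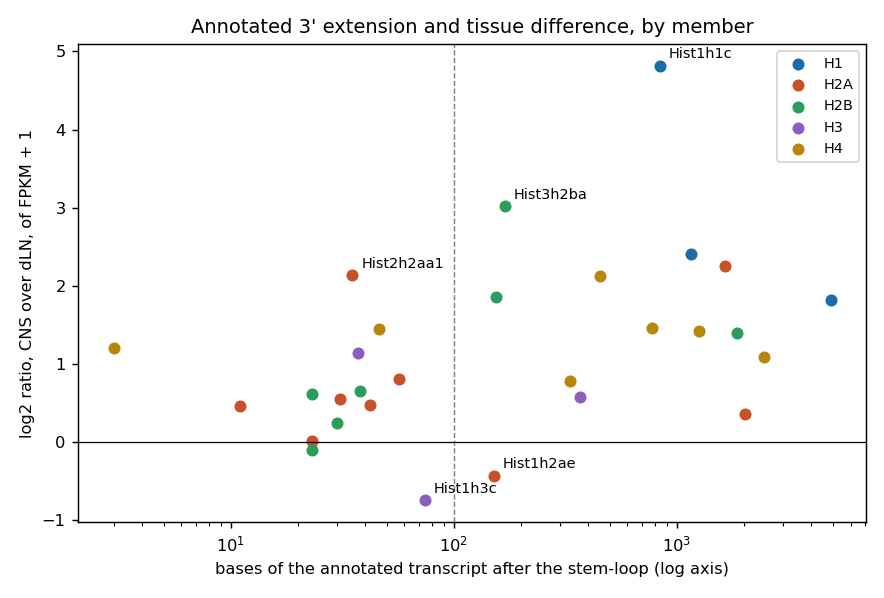
Points show the tested members with a stem-loop found, with the bases of the annotated transcript after it on a log axis and the log2 ratio of CNS over dLN of FPKM + 1 on the vertical axis, coloured by type; the dashed line marks 100 bases. Most members right of the line lie above 1, and most left of it lie below 1, with Hist2h2aa1 and Hist1h2ae among the exceptions.

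Members also differ in how well their reads can be told from those of other genes. In 23 tested members at least 50% of 50-base stretches were unique among annotated transcripts. Of these, 19 were higher in CNS (median log2 ratio 1.40), against 8 of 20 with less (median 0.56) and 37.8% of all genes tested. This split was not tested and overlaps the split by transcript end. Of the tested members that ran at least 100 bases past the stem-loop, only Hist1h3e had under 50% unique stretches. By type, 14 of 18 H2A members and 8 of 12 H3 members had under 50% unique stretches, against 0 of 6 H1 members. How the authors' counting treated reads that fit several genes is not given in the sources used here, so levels of near-identical members are uncertain.

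The CNS libraries also differed from each other. CNS replicate 2 was above CNS replicate 1 in 39 of the 43 tested members, with a median ratio of 1.59 where all genes tested had 1.02. The myeloid marker sum was higher in the same library, and the correction for fragment length behind the FPKM was 150 bases in CNS replicate 1 and 194 in CNS replicate 2, which weighs on models as short as these (median 480 bases). Taken per full transcript length, the median ratio was 1.38, with 34 of the 43 above. The part of the myeloid cells in the remainder was not tested. The 2 dLN libraries had a median ratio of 0.904, and per full length the tissue ratio of the member sums was 5.17.

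Of 22 tested genes of histone mRNA processing and gene control, 5 were higher in CNS and 14 lower (median log2 ratio -0.43), where 37.8% and 37.2% of all genes tested were higher and lower. The number lower fell to 10 at the same upper quartile per library, 10 without CNS replicate 1, 9 without dLN replicate 1 and 10 without dLN replicate 2, and at the same sum per library 2 were higher and 15 lower. Slbp, which binds the stem-loop, was at 41.8 and 38.1 FPKM in CNS and 30.6 and 26.7 FPKM in dLN (log2 ratio 0.47, adjusted p = 0.013), a call lost when libraries were scaled to the same sum (adjusted p = 0.086), without CNS replicate 1 (0.079) and without dLN replicate 2 (0.072). Ccne1 (log2 ratio 1.36), the cyclin that drives S phase entry, E2f1 (0.94) and the cleavage factor gene Cpsf3 (0.50, call lost at the same sum with an adjusted p of 0.055) were also higher. Npat, the coactivator of the histone clusters, was lower at 4.54 and 3.92 FPKM against 6.54 and 6.77 FPKM (log2 ratio -0.55, adjusted p = 0.0074). Hinfp, an H4 promoter factor, had a log2 ratio of -0.56 (adjusted p = 0.041) and lost its call at the same upper quartile per library (0.071), with no filter (0.10), without CNS replicate 1 (0.16) and without dLN replicate 1 or 2 (0.076 and 0.17). Casp8ap2, a partner of Npat in the histone locus body, was at 0.07 and not called. Upf1 and Ncbp1, which act in histone mRNA decay and cap binding, were lower (log2 ratios -1.15 and -1.09), as was Pou2af1, the octamer coactivator also known as a B cell gene, at 0.0792 and 0.253 FPKM in CNS and 92.1 and 105 FPKM in dLN. The summed B cell markers were 1.31 and 1.97 FPKM in CNS and 0.608 and 0.401 FPKM in dLN, where Pou2af1 was high.

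Histone chaperones, which carry new histones to DNA, had calls in both directions. Of 25 tested, 7 were higher in CNS and 14 lower (median -0.52), beside 37.8% and 37.2% of all genes tested. At the same sum per library 4 were higher and 16 lower. Chaf1b (log2 ratio 1.29), a subunit of the assembly factor CAF-1, the H3-H4 chaperone gene Asf1b (1.27) and Tonsl (1.16) were higher, but the CAF-1 gene Chaf1a was at 0.14 and not called, and Asf1a (-0.98) and the H3-H4 chaperone gene Nasp (-1.14) were lower. Asf1b lost its call with no filter (adjusted p = 0.051) and without CNS replicate 1 or 2 (0.13 and 0.079). The largest falls were those of Rbbp7 (-1.73), Npm1 (-1.61) and Supt16 (-1.49), which also serve ribosome assembly, transcription or other chromatin complexes.

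Replacement histone variants are made outside S phase from unclustered genes. Of the 11 tested genes on this list, 6 were higher and 0 lower in CNS (median 0.28), beside 37.8% and 37.2% of all genes tested. The list also holds Hmgb1 and Hmgb2, which are HMG-box proteins and not histones. Of its 9 histone variants, 5 were higher by limma and 0 lower, with H2afx lower at an unadjusted p under 0.05 but not after adjustment. Scaled to the same sum per library, 3 were higher and 2 (H2afx and H3f3b) lower. H1f0, the replacement linker histone, was at 66.8 and 76.1 FPKM in CNS and 15.3 and 8.93 FPKM in dLN (log2 ratio 2.51, adjusted p = 7.4e-04), higher in CNS as the tested clustered H1 genes were. H2afv was higher by a log2 ratio of 2.22 and H2afy, macroH2A, by 1.12. The abundant variants differed little: H3f3a, an H3.3 gene, had a log2 ratio of 0.28 (adjusted p = 0.016, lost at the same sum with 0.36 and without dLN replicate 1 or 2 with 0.096 and 0.089), while H3f3b (-0.09) and H2afz (0.06) were not called and changed sign with the scaling. H3f3a alone was at 480 and 459 FPKM in CNS, above the sum of all clustered histone genes in each library. If poly(A) RNA was selected, little of the hairpin-ended RNA would be counted. These levels therefore cannot be set against each other as amounts in the cells.

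Of 40 S phase and DNA replication genes, 19 were higher in CNS and 3 lower (median 0.40), beside 37.8% and 37.2% of all genes tested. Rpa1 (log2 ratio 2.04), Tk1 (1.51, call lost without CNS replicate 1 with an adjusted p of 0.051) and Lig1 (1.31) were higher, Ung (-1.56), Mcm10 (-0.82, lost without CNS replicate 2 with 0.054) and Mcm3 (-0.49) lower, and Pcna, at 205 and 202 FPKM against 214 and 217 FPKM, was not called. The count rested on single libraries, with 11 higher and 3 lower without CNS replicate 1 and 11 higher and 4 lower without dLN replicate 2. Scaled to the same sum per library, a change that shifted the median gene by -0.18, 11 were higher and 6 lower.

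Of 20 mitosis genes, 2 were higher in CNS (Ccnb2 at 1.34 and Nusap1 at 1.02), 0 lower and 18 not called by limma. At an unadjusted p under 0.05, 1 was lower (Ccnb1). Of all genes tested, 37.8% were higher and 37.2% lower after adjustment. Mki67, the common proliferation marker, was at 18.3 and 15.0 FPKM in CNS and at 17.4 and 8.96 FPKM in dLN (log2 ratio 0.38, adjusted p = 0.31). The dLN libraries differed from each other on this list, with a median ratio of replicate 2 over replicate 1 of 0.458, where the clustered histone genes had 0.904. Accordingly 7 were higher and 0 lower without dLN replicate 1, 2 were higher and 9 lower without dLN replicate 2, and 0 were called without either CNS replicate.

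**Figure D5:**
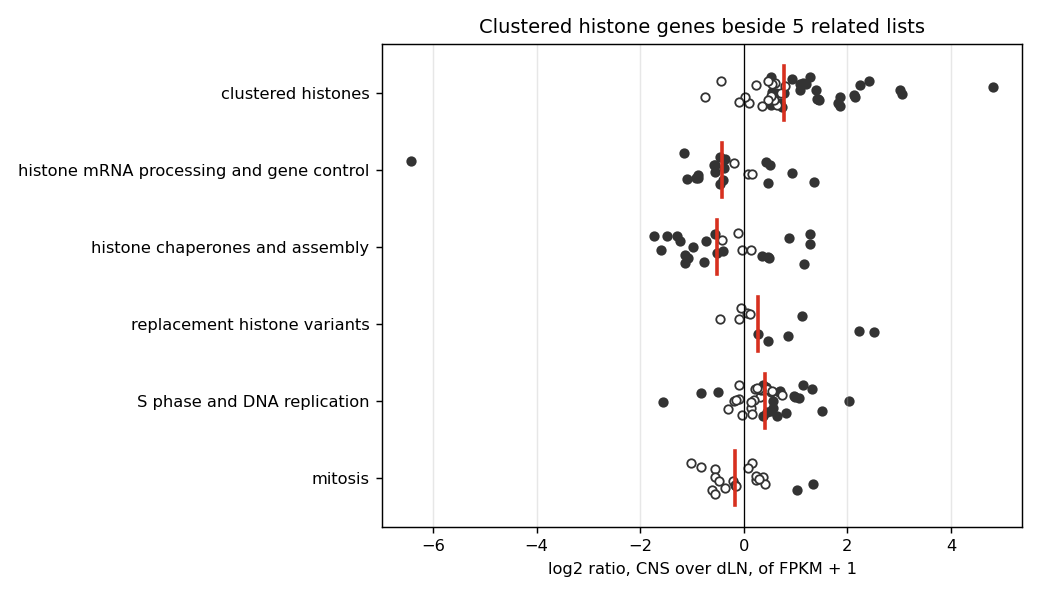
Points show the log2 ratio of CNS over dLN of FPKM + 1 for each tested gene of the clustered histones and of 5 related lists, filled where the adjusted p was under 0.05, with red bars at the medians. The medians lie at 0.78 for the clustered histones, 0.40 for S phase, 0.28 for replacement variants, -0.17 for mitosis, -0.43 for processing and -0.52 for chaperones, and the far left point is Pou2af1.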

How the data were processed

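RNA from sorted effector CD4 cells was made into libraries with TruSeq RNA V2 kits and sequenced on an Illumina HiSeq2500. The authors deposited FPKM per RefSeq transcript (mouse build mm10). Each tissue has its own table, of 33819 transcripts. The aligner and the program behind the FPKM are not given in the sources used here. The CNS header names both libraries in 1 field, and the columns were taken to follow that order.

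FPKM was summed by symbol (565 transcripts had none). Transcript starts are given counted from 1. The test, limma 3.58.1 (lmFit and eBayes with trend, R 4.3.3), took log2(FPKM + 1) of the genes whose mean reached 1 FPKM in either tissue, and compared tissues with no other term. With 2 libraries per tissue, an exact permutation test could not go below p = 0.333, so no single sum was tested.

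Of the low values, 90.2% to 93.8% were whole multiples of 1 fragment (within 0.05 of a whole number, where chance gives 10% at a depth and length fixed beforehand). Depth and fragment length were chosen to make this share largest. Among shorter transcripts, of the size of most members, the share was 79.7% to 91.5%. This choice gave the depth, the fragment-length correction of 150 to 194 bases and the fragments per gene, which are estimates. Counting intervals are exact 95% intervals of a ratio of 2 counts, for counting error only. The fits were checked on simulated data. Stem-loops and uniqueness of 50-base stretches came from GENCODE M21 transcripts, and promoters from RefSeq.

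Values are given for members with a tissue mean of at least 5 FPKM and for called members with a log2 ratio of at least 1, with others by range. Hist1h3c, Hist1h2ae, Hist1h2bj, Chaf1a, Asf1a, Nasp and the gene pairs were chosen after their values were seen. From each other list, the 3 largest called changes per direction were eligible, plus Slbp, Npat, Casp8ap2, Hinfp, H2afz, H3f3a, H3f3b, Mki67 and Pcna. The members and lists were chosen with earlier results of these data known. Replicate numbers were not taken as pairing the libraries.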

Additional observations from a re-analysis of the deposited data

How the results depend on the processing

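The sex of the mice and the table split as the tissues do, and dLN levels of most members rest on few fragments: 31 and 37 members had at most 3 in dLN replicates 1 and 2. The named clustered histone genes kept direction in each comparison with an alternative. With all libraries kept, they kept the call in 185 of 190 comparisons and lost it in the other 5. Calls were lost more often when a library was left out. These genes were chosen by level or by call from the same values, and some alternatives leave the log2 ratio of genes with 1 transcript unchanged. The count is therefore a description. Members called numbered 27, and 11 of 11 tested at a minimum of 5 FPKM, where fewer genes were tested. No filter gave 28 of 65, of which 21 were among the 27 (lost: Hist1h2ai, Hist1h3a, Hist1h4d, Hist1h4i, Hist1h4k and Hist1h4m), scaling to the same sum 26 (25 higher, and Hist1h3c lower), to the same upper quartile 30, and FPKM per full length (chosen after seeing the data) 22 of 30. The replicate block gave 25, of which 22 were among the 27 (lost: Hist1h2ai, Hist1h2bn, Hist1h3a, Hist1h4j and Hist2h3b). The replicate differences of the 2 tissues had a correlation of 0.0933. The order of the CNS columns was assumed, so this value cannot tell whether same-numbered libraries were paired.

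Leaving out each library gave 18 (without dLN replicate 2) to 32 (without CNS replicate 1) clustered histone genes called, 6676 to 7429 of all genes (7968 with all libraries), 13 to 17 of processing and control (19), 18 to 20 of chaperones (21), 4 to 5 of replacement variants (6), 14 to 23 of S phase (22; 14 without CNS replicate 1) and 0 to 11 of mitosis (2). Mitosis genes called also moved to 0 with no filter, 1 at the same sum, 1 with eBayes without trend and 5 with the replicate block. The log2 ratio of the type sums ranged over 4.93 to 5.21 for H1, 1.06 to 1.82 for H2A, 1.91 to 2.65 for H2B, 0.31 to 1.14 for H3 and 1.31 to 1.97 for H4. Small log2 ratios changed sign for Casp8ap2 (-0.10) and H2afz (-0.13) at the same sum, for H3f3b (0.0451) and Pcna (0.0520) at the same upper quartile, which shifted the median gene by 0.12, and without dLN replicate 2 for H2afz (-0.0372, against 0.166 without dLN replicate 1) and Mki67 (-0.0654, against 0.819). The causes were not tested.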
